A study of Drosophila melanogaster with 9 samples.

Results

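*Yp1*, *Yp2* and *Yp3* are the yolk protein genes of *Drosophila melanogaster*, and these 3 genes were taken by name from the 14077 genes to which the deposited transcripts could be assigned. All 3 passed the filter on low counts, which 10870 genes passed. Yolk proteins are secreted by the fat body and by the follicle cells that surround the growing egg chamber, and the oocyte takes them up by endocytosis through the vitellogenin receptor Yolkless. Their transcription is female-specific under the sex determination factor Doublesex, and it responds to ecdysone, juvenile hormone and diet. Among follicle cells, yolk protein synthesis is known from the main body cells over the oocyte during the vitellogenic stages. The same cells make vitelline membrane proteins at these stages and chorion proteins after them.

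The libraries came from TRAP-seq (translating ribosome affinity purification), in which a GFP-tagged ribosomal protein, RpL10Ab, is expressed in chosen cells under GAL4 control and the ribosome-bound mRNA is pulled down and sequenced. Fed SFC libraries (stretch follicle cells, the flat cells over the nurse cells) came from *PG150-GAL4* flies carrying *UAS-RpL10Ab-GFP*, which were aged for 3 days and then had yeast paste over 2 days. Starved AFC libraries (all follicle cells, labelled main body follicle cells) came from *GR1-GAL4* flies with the same transgene, kept for 16 to 20 hours on apple juice agar without yeast. The age of the starved flies and their feeding before the transfer were not stated. Fed AFC libraries came from the *GR1-GAL4* flies on the same 3-day and 2-day feeding scheme as the fed SFC flies. Each group had 3 libraries, 9 in all, each of about 100 flies, and crosses were made at 25 °C. *GR1* is also active in SFCs and *PG150* also in centripetal cells. The paper further reports weak activity of *GR1* in the gut and of *PG150* in the Malpighian tubules. Neither driver is thus exclusive to the population it names. The difference of cell type cannot be told apart from the difference of driver line. Whole thoraces and abdomens, which contain fat body, gut and muscle, went into the pull-down, and no library of input RNA or of a mock pull-down was analysed here. The sex of the flies was not stated in the labels.

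Library totals were 30551253 to 45910215 estimated reads. Ribosomal RNA pseudogenes took 1.19% to 36.3% of the reads, most in fed SFC replicate 2. Fed AFC replicate 1 had 13250 genes with at least 10 reads, against 9273 to 10869 in the other libraries. *RpL10Ab*, the tagged gene, was present in every library, at 2211, 2105 and 1132 CPM (counts scaled to a common library total, adjusted by TMM, the trimmed mean of M-values) in fed SFCs, at 3364, 2474 and 2715 CPM in starved AFCs, and at 2535, 4216 and 3446 CPM in fed AFCs. Of 11 SFC markers, 0 passed the test in fed SFCs against fed AFCs, while *Sox14*, *Vm26Aa*, *Vm26Ab* and *Vm32E*, 4 of 8 mid and late follicle cell markers, were lower. Over all genes tested 1.21% were called higher and 1.78% lower. The LFC was positive for 9 of the 11 SFC markers. Among them *drpr*, the engulfment receptor, was singled out with its values known. Its fed SFC values all lay above its fed AFC values, as in 9.12% of genes tested (LFC 0.66, adjusted p = 0.178). The mid and late follicle cell list includes the yolk protein genes themselves, whose LFC was positive. Of its genes the methods name *Yp1*, *Sox14* and *br* as markers, and *br* was not called (LFC -0.72, adjusted p = 0.493). *Vm26Aa*, *Vm26Ab* and *Vm32E* were added to the list and are counted again below among the vitelline membrane genes.

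*Yp1* (FBgn0004045) lies on chromosome X of BDGP6.54 at positions 10053811 to 10055498 on the plus strand. *Yp2* (FBgn0005391) lies beside it on the minus strand, at 10050951 to 10052636, so that the starts of both genes face each other across 1174 bases. *Yp3* (FBgn0004047) stands alone on the same chromosome, at 13759546 to 13761547 on the plus strand. The interval between *Yp1* and *Yp2* is known to hold enhancers for both the fat body and the ovary. Each gene has 2 annotated transcripts, and the coding sequences span 1317 bases in *Yp1*, 1326 in *Yp2* and 1260 in *Yp3*. An antisense RNA gene, asRNA:CR45601, overlaps *Yp1*. The library kit does not mark strand, so reads of the antisense RNA and of *Yp1* could not be told apart. The genes next to the members were *Cht6* and *CG15312* around the *Yp2* and *Yp1* pair and *Rtc1* and *rdgB* around *Yp3*. They gave 0 of 4 calls in each of the 3 comparisons, in which 0.221% to 2.99% of all genes were called.

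The yolk protein genes were among the most abundant mRNAs in every library. Together they took 2.53%, 2.50% and 5.42% of all reads in fed SFC replicates 1 to 3, 2.68%, 3.12% and 0.995% in starved AFCs, and 3.05%, 1.59% and 1.98% in fed AFCs. The 95% Wilson interval of these shares was at most 0.0132 percentage points wide, which covers counting error only. The spread between libraries of a group was thus far larger than the counting error. Ordered by TPM (the share of transcripts in a library, which corrects for length), the members ranked between 12 and 166 among all genes of a library. The best ranks of *Yp1*, *Yp2* and *Yp3*, 13, 20 and 12, all fell in fed SFC replicate 3. Their poorest ranks were 96 for *Yp1*, in fed AFC replicate 2, and 161 for *Yp2* and 166 for *Yp3*, both in starved AFC replicate 3.

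*Yp1* had 7578, 14095 and 18941 CPM in fed SFC replicates 1 to 3, 10626, 10371 and 5718 CPM in starved AFCs, and 10911, 5940 and 9996 CPM in fed AFCs. The highest values were those of fed SFC replicates 2 and 3, but fed SFC replicate 1 lay inside the range of the AFC libraries, so the groups overlapped. *Yp2* had 4569, 7055 and 11796 CPM in fed SFCs, 7787, 7249 and 2505 CPM in starved AFCs, and 6555, 3539 and 5293 CPM in fed AFCs. Its groups overlapped too, since fed SFC replicate 3 alone lay above all AFC libraries, and starved AFC replicate 3 was the lowest library. *Yp3* had 7860, 13330 and 20746 CPM in fed SFCs, 8310, 9632 and 2543 CPM in starved AFCs, and 8357, 7395 and 7376 CPM in fed AFCs. The fed AFC values of *Yp3* lay close together, whereas its fed SFC and starved AFC values did not.

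**Figure D1:**
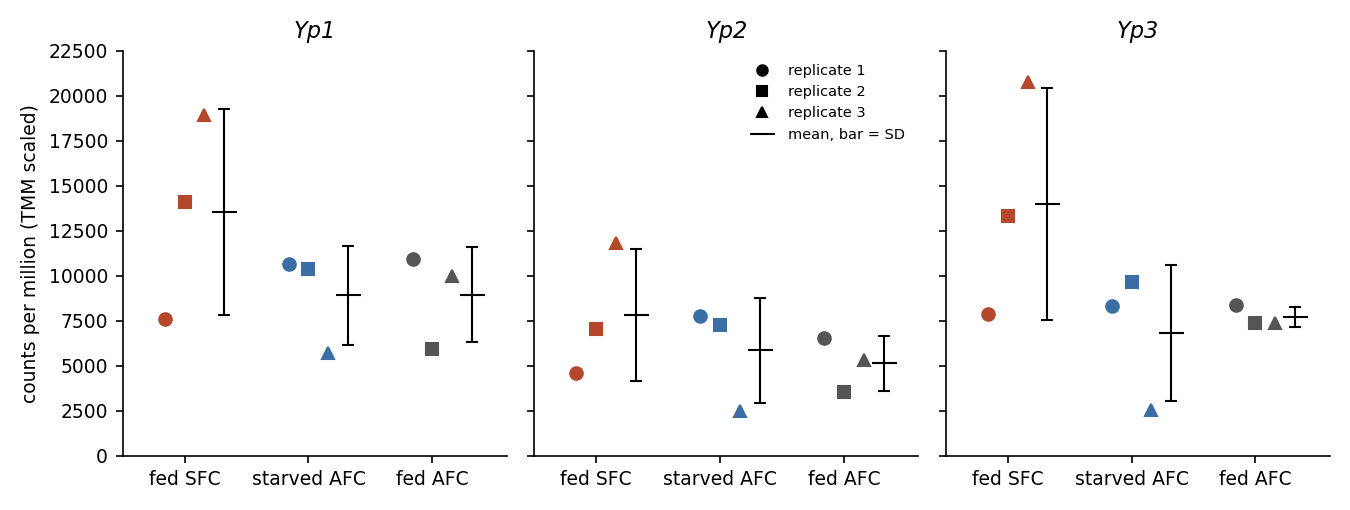
CPM (TMM scaled, vertical axis) of *Yp1*, *Yp2* and *Yp3* in each library of fed SFC, starved AFC and fed AFC (symbols give the replicate number), with the group mean and SD as a bar (n = 3 each). *Yp3* reached 20746 CPM in fed SFC replicate 3 and 2543 CPM in starved AFC replicate 3, while the 3 fed AFC libraries stayed between 7376 and 8357 CPM.

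The libraries within a group differed by more than the group means did, except for *Yp3* in fed AFCs. For *Yp1* the highest library stood over the lowest by 2.50-fold in fed SFCs, 1.86-fold in starved AFCs and 1.84-fold in fed AFCs, and the highest group mean stood over the lowest by 1.52-fold. For *Yp2* these ratios were 2.58, 3.11 and 1.85, against 1.52 between group means. For *Yp3* they were 2.64, 3.79 and 1.13, against 2.05 between group means. The pooled within-group SD of log2 CPM was 0.56 for *Yp1*, 0.71 for *Yp2* and 0.73 for *Yp3*, with a median of 0.44 over all genes tested. The SD of *Yp3* was 0.70 in fed SFCs, 1.05 in starved AFCs and 0.10 in fed AFCs.

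Fed SFCs were set against fed AFCs to ask how the translatome of the stretch cells differs from that of the whole follicular epithelium. None of the 3 yolk protein genes passed the test (edgeR's quasi-likelihood test with Benjamini-Hochberg adjustment, adjusted p below 0.05), while 2.99% of all genes did. All 3 had higher means in fed SFCs. *Yp1* averaged 13538 ± 5702 CPM in fed SFCs and 8949 ± 2646 CPM in fed AFCs (SD, n = 3 each), a log2 fold change (LFC) of 0.60 with an SE of 0.45 and an adjusted p of 0.467. *Yp2* averaged 7807 ± 3672 CPM in fed SFCs and 5129 ± 1515 CPM in fed AFCs (LFC 0.61, SE 0.49, adjusted p = 0.502). *Yp3* averaged 13979 ± 6467 CPM in fed SFCs and 7709 ± 561 CPM in fed AFCs (LFC 0.86, SE 0.51, adjusted p = 0.367). The fold intervals were wide, at 0.774 to 2.96 for *Yp1*, 0.729 to 3.18 for *Yp2* and 0.846 to 3.89 for *Yp3* (95%), so that a rise of up to 2.96-fold lay inside the interval of each member. The groups of all 3 members overlapped, whereas 9.12% of genes tested had every fed SFC library above every fed AFC library. The median LFC of all genes tested was -0.10. In such bulk material fewer cells of a type and less RNA per cell cannot be told apart, and a ribosome-bound level does not separate mRNA amount from ribosome loading.

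Starved AFCs were set against fed AFCs to ask what protein deprivation changes in follicle cells. The yolk protein genes stood near the fed level on average, and 0 of 3 passed the test, while 0.221% of all genes did. *Yp1* averaged 8905 ± 2763 CPM in starved AFCs and 8949 ± 2646 CPM in fed AFCs (LFC -0.01, SE 0.44, adjusted p = 0.998). *Yp2* averaged 5847 ± 2907 CPM in starved AFCs and 5129 ± 1515 CPM in fed AFCs (LFC 0.19, SE 0.49, adjusted p = 0.989). *Yp3* averaged 6828 ± 3769 CPM in starved AFCs and 7709 ± 561 CPM in fed AFCs (LFC -0.18, SE 0.50, adjusted p = 0.991). The 95% intervals of the fold ran over 0.510 to 1.94 for *Yp1*, 0.547 to 2.37 for *Yp2* and 0.415 to 1.89 for *Yp3*. Folds from 0.547 to 1.89 lay inside the interval of each member, and equality was not shown. Without starved AFC replicate 3, the lowest library of each member, the LFC was 0.26 for *Yp1*, 0.58 for *Yp2* and 0.25 for *Yp3*, with 0 of 3 past the threshold. Percentages of genes whose groups did not overlap were 6.17% with starved AFCs above and 5.91% with starved AFCs below, and no member was among them.

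Fed SFCs against starved AFCs gave the largest difference seen for *Yp3*, which averaged 13979 ± 6467 CPM in fed SFCs and 6828 ± 3769 CPM in starved AFCs (SD, n = 3 each). Its LFC was 1.03 with an SE of 0.51, a 2.05-fold difference with a 95% interval of 0.952 to 4.40, and an adjusted p of 0.312. The LFC was 0.60 for *Yp1* (SE 0.45, adjusted p = 0.515) and 0.42 for *Yp2* (SE 0.49, adjusted p = 0.710). With 0 of 3 members past the threshold, against 2.22% of all genes, and overlapping groups for each member, against 11.2% of genes with fed SFCs above and 13.5% with fed SFCs below, the direction was common to the 3 genes but was not separated from the spread between libraries. Over all 9 member comparisons the smallest unadjusted p was 0.0640, for *Yp3* here, so that 0 of 9 were below 0.05 before adjustment, and DESeq2 called 0 of 9 as well. Of the 10870 genes tested, 2137 were below an unadjusted p of 0.05 in fed SFCs against fed AFCs, 546 in starved AFCs against fed AFCs and 1950 in fed SFCs against starved AFCs, and DESeq2 called 1064, 98 and 892 genes in the same order. The 3 comparisons share groups and are not independent of each other.

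**Figure D2:**
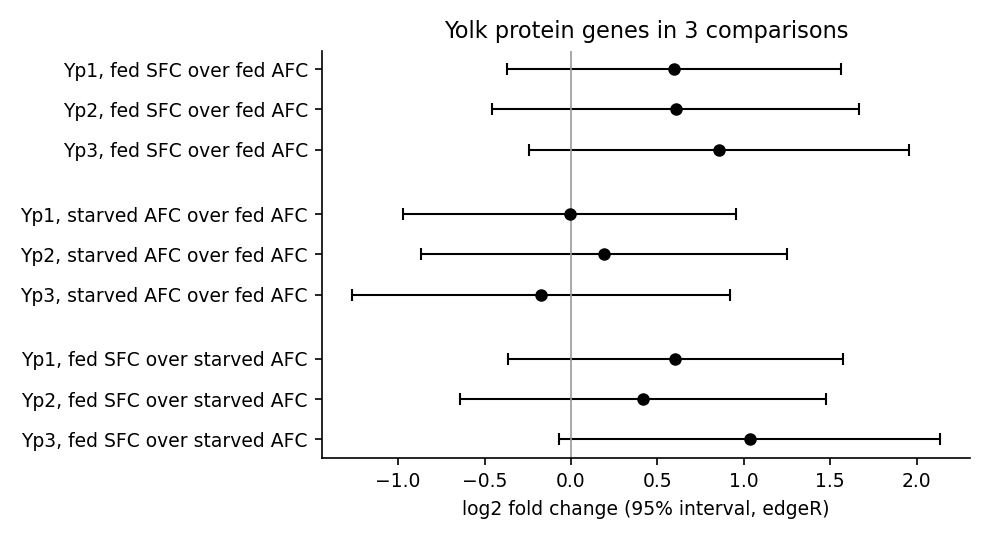
Log2 fold change (horizontal axis) of each yolk protein gene in the 3 comparisons, with its 95% interval from the edgeR fit of 9 libraries. All 9 intervals include 0; the interval of *Yp3* in fed SFC over starved AFC, with an LFC of 1.03, comes closest to leaving it out.

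The members moved together from library to library. Over the 9 libraries, Pearson's r of log2 CPM was 0.94 between *Yp1* and *Yp2*, the neighbours, 0.89 between *Yp2* and *Yp3*, and 0.86 between *Yp1* and *Yp3*. Spearman's rho was 0.87, 0.83 and 0.90 for these pairs. With the group means removed, r was 0.94, 0.94 and 0.83 for the same pairs, so the joint movement lay inside the groups. Without the 2 libraries farthest from the median of the first gene of each pair, r was 0.89, 0.83 and 0.74 over 7 libraries. These values are descriptions, since the points share depth, scaling and the composition of each library.

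Compared per length, *Yp2* was the least abundant of the 3 in 8 of 9 libraries, and *Yp1* and *Yp3* changed places. The ratio of *Yp3* to *Yp1* TPM was 1.06, 0.888 and 1.03 in fed SFC replicates 1 to 3, 0.790, 0.946 and 0.413 in starved AFCs, and 0.748, 1.14 and 0.683 in fed AFCs. Starved AFC replicate 3 stood lowest, and there *Yp3* and *Yp2* were nearly level, at 805 and 825 TPM. The ratio of *Yp3* to *Yp2* TPM was 1.82, 1.86 and 1.73 in fed SFCs, 1.12, 1.41 and 0.977 in starved AFCs, and 1.29, 2.00 and 1.34 in fed AFCs. This ratio was higher in every fed SFC library than in every starved AFC library, and the fed AFC values overlapped both, with 2 of 3 starved AFC libraries below every fed AFC library. A two-sided exact permutation test of the log2 ratio gave p = 0.1 for fed SFCs against starved AFCs, the smallest p that 3 libraries against 3 allow. Over the 9 ratio comparisons made, which were added after the values had been seen, the adjusted p was 0.72.

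The 2 annotated *Yp3* transcripts differ at the 3′ end. *Yp3*-RA carries a 3′ UTR of 169 bases and *Yp3*-RB one of 549 bases around the same coding sequence of 1260 bases. *Yp3*-RB had 1227, 4824 and 7362 CPM in fed SFC replicates 1 to 3, 1436, 1456 and 1269 CPM in starved AFCs, and 2530, 2902 and 3151 CPM in fed AFCs. All starved AFC values lay below all fed AFC values, as they did for 5.49% of the 18333 transcripts tested, and the fed SFC values lay on both sides. *Yp3*-RA had 6743, 7885 and 14126 CPM in fed SFCs, 6926, 8289 and 1217 CPM in starved AFCs, and 5949, 4606 and 4171 CPM in fed AFCs. For *Yp3*-RA all fed SFC values lay above all fed AFC values, as in 6.39% of transcripts tested.

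In an edgeR fit over all transcripts, added after these values had been seen, neither difference passed the threshold. For *Yp3*-RB in starved AFCs against fed AFCs the LFC was -1.04 (SE 0.56, unadjusted p = 0.0984, adjusted p = 1), and 0.0218% of transcripts were called. For *Yp3*-RA in fed SFCs against fed AFCs the LFC was 0.97 (SE 0.68, adjusted p = 0.710), and 0.185% of transcripts were called. For *Yp3*-RB in fed SFCs against starved AFCs the LFC was 1.69 (SE 0.57, unadjusted p = 0.0174, adjusted p = 0.439), with fed SFC replicate 1 below all starved AFC libraries, replicates 2 and 3 above them, and 0.06% of transcripts called. Without fed SFC replicate 3 this LFC was 1.02, and that of *Yp3*-RA in fed SFCs against fed AFCs was 0.54. As a share of *Yp3* TPM, *Yp3*-RB made up 11.2%, 30.5% and 27.1% in fed SFCs, 13.0%, 11.6% and 43.4% in starved AFCs, and 23.7%, 29.4% and 34.7% in fed AFCs. The starved library with the highest share was the one in which *Yp3*-RA was lowest. The split of reads between overlapping transcripts is an estimate of Salmon, the quantifier, whose own error was not in these fits.

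**Figure D3:**
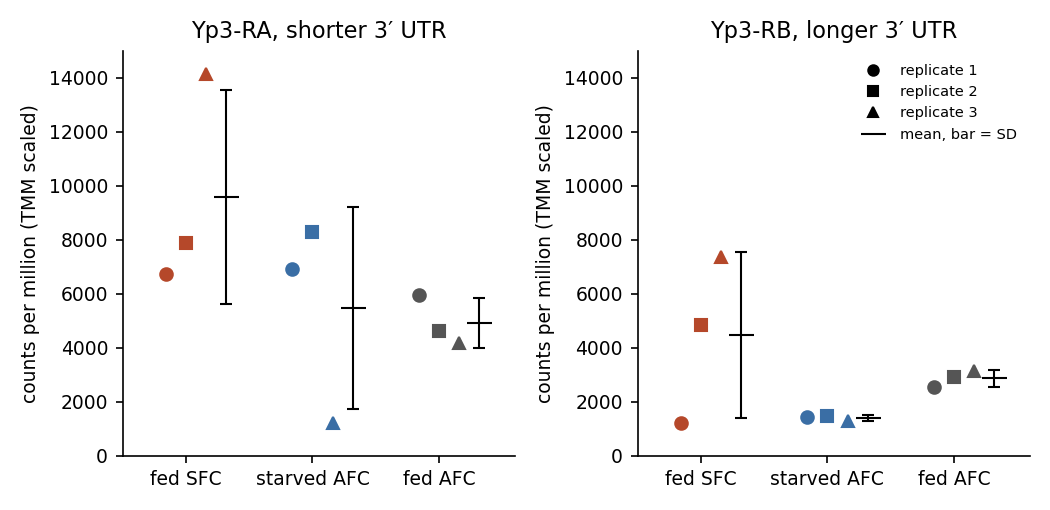
CPM (TMM scaled over transcripts, vertical axis) of *Yp3*-RA and *Yp3*-RB in each library of fed SFC, starved AFC and fed AFC, with the group mean and SD as a bar (n = 3 each). The 3 starved AFC values of *Yp3*-RB, between 1269 and 1456 CPM, sit below the 3 fed AFC values, between 2530 and 3151 CPM.

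The other genes with paired transcripts used mainly 1 of them. *Yp2*-RB took all *Yp2* reads in 8 of 9 libraries, and *Yp2*-RA had an estimated 82.4 reads in starved AFC replicate 2 and 0 in the rest. *Yp1*-RB, whose 5′ UTR of 106 bases begins upstream of the 65-base 5′ UTR of *Yp1*-RA, made up 0% to 8.39% of *Yp1* TPM. It was at 0% in fed SFC replicate 2 and fed AFC replicate 2, and highest in fed SFC replicate 1.

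Uptake and control of yolk proteins were described through lists of genes. Of 10 genes of the uptake route of the oocyte, 0 passed the test in any of the 3 comparisons. Between 0.221% and 2.99% of all genes did, so 0 of 10 does not set the list apart. The median LFC of the 10 genes was 0.01 in fed SFCs against fed AFCs and 0.08 in starved AFCs against fed AFCs. *yl*, which encodes the vitellogenin receptor, had 1052, 662 and 907 CPM in fed SFCs, 1238, 1224 and 827 CPM in starved AFCs, and 681, 546 and 1001 CPM in fed AFCs. *boca*, which encodes a chaperone for receptors of this family, had 42.5, 33.0 and 24.8 CPM in fed SFCs and 46.1, 95.02 and 70.4 CPM in fed AFCs (LFC -1.08, adjusted p = 0.0806). Every fed SFC value of *boca* lay below every fed AFC value, as in 11.8% of genes tested. Over the 9 libraries the r of *yl* with the mean log2 CPM of the yolk protein genes was 0.18.

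The list of 19 genes for regulators of the yolk protein genes covered sex determination, fat body and ovary enhancer factors, ecdysone, juvenile hormone and insulin signalling. Where 0.221% to 2.99% of all genes passed the test in a comparison, 0 of these 19 did, which does not set them apart. Their median LFC was 0.40 in fed SFCs against fed AFCs, -0.20 in starved AFCs against fed AFCs and 0.50 in fed SFCs against starved AFCs, beside -0.10, -0.09 and -0.02 over all genes tested. *dsx*, whose female product activates the yolk protein genes, averaged 11.1 ± 6.46 CPM in fed SFCs, 6.95 ± 1.31 CPM in starved AFCs and 7.99 ± 1.76 CPM in fed AFCs (SD, n = 3 each). *tra*, which directs the female splicing of *dsx*, averaged 15.2 ± 2.24 CPM in fed SFCs, 27.0 ± 3.87 CPM in starved AFCs and 22.5 ± 3.85 CPM in fed AFCs, and its smallest adjusted p was 0.124, in fed SFCs against starved AFCs. *Aef1*, a repressor known to bind the fat body enhancer of *Yp1* and singled out after its values had been seen, had the smallest adjusted p of the list, 0.0964 in the same comparison, with 79.5 ± 38.0 CPM in fed SFCs and 36.7 ± 8.44 CPM in starved AFCs.

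Eggshell genes, most of which main body follicle cells express at or after the stages of yolk protein synthesis, were called in comparisons in which the yolk protein genes were not. Of 10 vitelline membrane genes, 5 fell in fed SFCs against fed AFCs and 0 rose (*Vm26Aa*, *Vm26Ab*, *Vm26Ac*, *Vm32E* and *Vml*), with a median LFC of -1.83 over the list, while 1.21% of all genes rose and 1.78% fell. In starved AFCs against fed AFCs 0 of 10 were called, and the median LFC was -1.07. Of 9 chorion genes, 5 fell in fed SFCs and 6 fell in starved AFCs, both against fed AFCs, with medians of -1.63 and -1.91. For starved AFCs the shares over all genes were 0% rising and 0.221% falling. *Cp36*, an early chorion gene, had 639, 615 and 472 CPM in fed SFCs, 596, 268 and 558 CPM in starved AFCs, and 1671, 1757 and 1919 CPM in fed AFCs. Its adjusted p was 0.0192 for fed SFCs and 0.0379 for starved AFCs against fed AFCs.

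Within a library, the yolk protein genes could be set against an eggshell gene per length. The ratio of *Yp1* to *Vm26Aa* TPM was 13.9, 13.2 and 14.1 in fed SFC replicates 1 to 3, 4.13, 6.15 and 2.91 in starved AFCs, and 2.29, 3.02 and 2.12 in fed AFCs. The fed SFC values lay close together and far above both AFC groups, and the starved and fed AFC values overlapped. Against fed AFCs, most of this difference lay in the lower *Vm26Aa*. In edgeR its LFC was -1.99 (adjusted p = 0.0226), beside 0.60 for *Yp1* (adjusted p = 0.467). The ratio of *Yp3* to *Vm26Aa* was 11.7 to 14.7 in fed SFCs, 1.20 to 5.82 in starved AFCs and 1.45 to 3.46 in fed AFCs. The ratio of *Yp1* to *Cp36* TPM was 7.84 to 27.7 in fed SFCs, 6.83 to 26.2 in starved AFCs and 2.31 to 4.36 in fed AFCs. These ratios were formed after the values of the genes had been seen and were not tested.

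**Figure D4:**
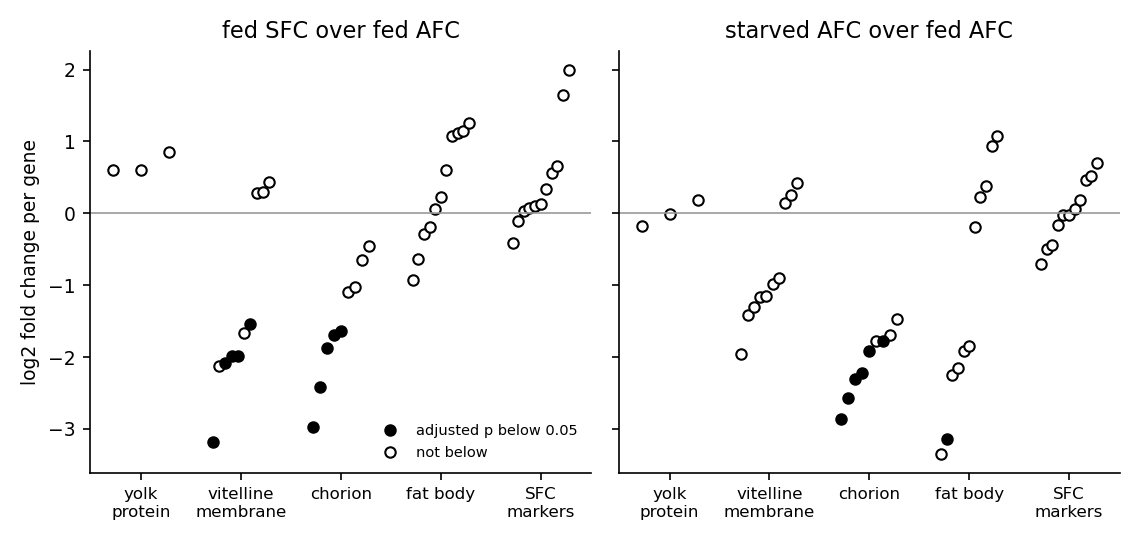
Log2 fold change per gene (vertical axis) for the 3 yolk protein genes, 10 vitelline membrane genes, 9 chorion genes, 11 fat body genes and 11 SFC markers, in fed SFC over fed AFC and in starved AFC over fed AFC. Filled points passed an adjusted p of 0.05 in edgeR; the yolk protein genes lie between 0.60 and 0.86 in the first comparison and between -0.18 and 0.19 in the second, all open.

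Fat body, the other source of yolk protein, was followed through 11 marker genes, because whole abdomens went into the pull-down. The summed level of the list was 1259 to 2629 CPM in fed SFCs, 383 to 935 CPM in starved AFCs and 522 to 1775 CPM in fed AFCs. In fed SFCs against fed AFCs 0 of 11 were called, while 2.99% of all genes were. In starved AFCs against fed AFCs 1 fell, *Lsp1beta*, while 0.221% of all genes fell. In fed SFCs against starved AFCs 2 rose, *Lsp2* and *Lsp1beta*, which encode larval serum proteins. There 1.24% of all genes rose and 0.975% fell. *Lsp1alpha*, *Fbp1*, *Fbp2* and *Lsp1gamma* were at 0 in at least 1 library, and the other 7 were above 0 in all 9. Over the 9 libraries the r of the list's summed level with the mean log2 CPM of the yolk protein genes was 0.83. The same r was 0.82 for the list of regulators of the yolk protein genes and 0.77 for the hemocyte markers. A high value was thus not particular to the fat body list. The lists are not separate by tissue, since the regulators include fat body enhancer factors and share *srp* with the hemocyte markers.

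*Lsp2* had 566, 933 and 1705 CPM in fed SFC replicates 1 to 3, 59.1, 243 and 52.2 CPM in starved AFCs, and 776, 199 and 368 CPM in fed AFCs. Fed SFC replicate 3, the highest library for all 3 yolk protein genes, was the highest for *Lsp2*, and starved AFC replicate 3, the lowest for *Yp1*, *Yp2* and *Yp3*, was the lowest for it. *Tsf1*, which encodes a secreted transferrin and was singled out after its values had been seen, had 400, 833 and 560 CPM in fed SFCs, 244, 331 and 175 CPM in starved AFCs, and 382, 165 and 306 CPM in fed AFCs. With the mean log2 CPM of the yolk protein genes, r was 0.71 for *Lsp2*, 0.77 for *Tsf1* and 0.54 for *apolpp*, the lipophorin precursor. The other 8 fat body genes had an r between -0.03 (*Mtp*) and 0.44 (*Lsp1beta*). In starved AFCs against fed AFCs the LFC was 0.94 for *apolpp* and 1.07 for *Apoltp*, against -1.92 for *Lsp2*, so the markers did not share a direction there. For comparison, the r with the mean log2 CPM of the yolk protein genes was -0.10 for *Vm26Aa*, -0.25 for *Cp36* and -0.65 for the tagged gene *RpL10Ab*. With the group means removed, r was 0.73 for *Lsp2*, 0.69 for *Tsf1*, 0.67 for *apolpp*, 0.59 for *Vm26Aa* and -0.50 for *Cp36*. On that measure the vitelline membrane genes ran from -0.72 (*Vm32E*) to 0.69 (*Vm26Ab*). The part of fat body RNA in the levels of the yolk protein genes was not tested.

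**Figure D5:**
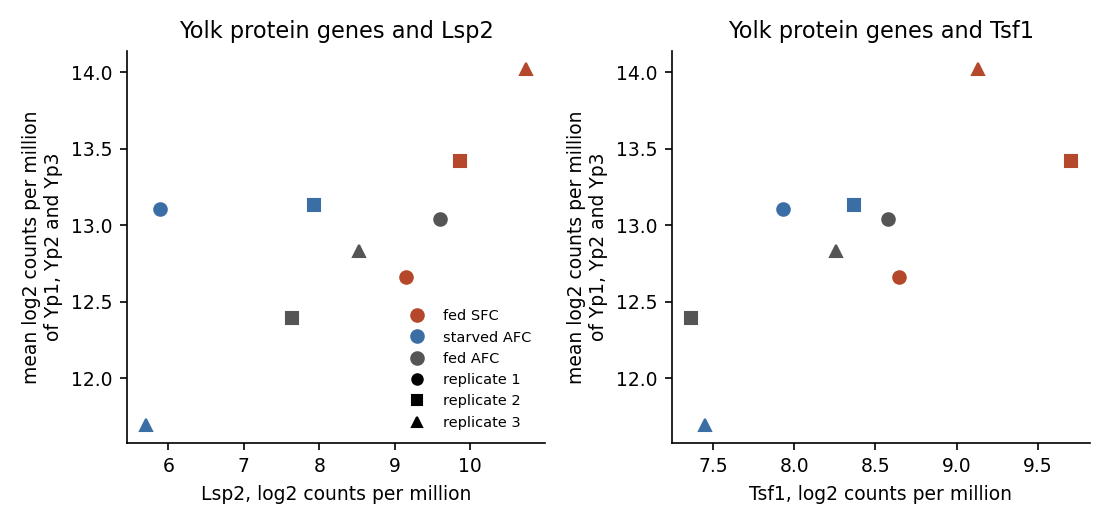
Mean log2 CPM of *Yp1*, *Yp2* and *Yp3* (vertical axis) against log2 CPM of the fat body genes *Lsp2* and *Tsf1* (horizontal axes) in the 9 libraries, with colours for the group and symbols for the replicate. The r was 0.71 for *Lsp2* and 0.77 for *Tsf1*, given as descriptions.

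Markers of other tissues also differed between the groups. Of 10 muscle genes, 6 rose in fed SFCs against fed AFCs, with summed levels of 801 to 1834 CPM in fed SFCs and 290 to 606 CPM in fed AFCs. Of 10 midgut genes, 6 fell in fed SFCs and 3 fell in starved AFCs, with summed levels of 2235 to 4078 CPM in fed SFCs, 4318 to 5818 CPM in starved AFCs and 5232 to 9079 CPM in fed AFCs. Of 9 germline genes, 1 rose in fed SFCs against fed AFCs, *bcd*, the maternal anterior determinant. Shares over all genes tested were 1.21% rising and 1.78% falling in fed SFCs against fed AFCs. They were 0% rising and 0.221% falling in starved AFCs against fed AFCs, and 2.22% called in fed SFCs against starved AFCs. Hemocyte markers (6 genes) and early follicle cell genes (6 genes) gave 0 calls in all 3 comparisons, and of 10 male reproductive genes 1 passed the filter on low counts, at 0 to 1.86 CPM. The r of the summed level with the mean of the yolk protein genes was 0.44 for muscle, 0.39 for germline and -0.24 for midgut, and the part of these tissues in the yolk protein levels was not tested.

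The genes whose pattern over the 9 libraries was most like that of the yolk protein genes were *CG18135* (r = 0.96), *CG31198* (r = 0.93), *Hsepi* (r = 0.93), *CG32647* (r = 0.92) and *CG14629* (r = 0.91). Likeness was Pearson's r of log2 CPM with the mean of the 3 members, over 10867 other genes that passed the filter, of which 7 had an r above 0.9. *CG18135* had 115.2, 171 and 191 CPM in fed SFCs, 139, 168 and 86.7 CPM in starved AFCs, and 134, 106 and 137 CPM in fed AFCs. Like the members, it was highest in fed SFC replicate 3 and lowest in starved AFC replicate 3. *Hsepi*, which encodes the heparan sulfate C5-epimerase, ranged over 14.8 to 23.6 CPM in fed SFCs, 12.8 to 18.9 CPM in starved AFCs and 14.5 to 16.4 CPM in fed AFCs. None of these 5 genes passed the test in any of the 3 comparisons, in which 0.221% to 2.99% of all genes did.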

How the data were processed

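TRAP-seq libraries of fed SFCs, starved AFCs and fed AFCs were analysed, grouped by their labels (n = 3 each). The authors quantified single-end reads with Salmon 1.1.0 against BDGP6.32 release 104 with GC-bias correction, and deposited estimated counts, without normalization, and TPM for each transcript. bcl2fastq 2.2 and cutadapt stand in the submitters' processing notes. Estimated counts of 30179 of 30215 transcripts were assigned to 14077 genes by identifier with BDGP6.54, summed and rounded. Library totals were 30551253 to 45910215 reads. Coordinates are those of BDGP6.54. TPM served only for ranks and ratios between genes.

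edgeR 4.0.16 (R 4.3.3) quasi-likelihood tests scaled by TMM, kept genes by filterByExpr (minimum count 10), fitted a mean for each of 3 groups over 9 libraries, and adjusted p-values by Benjamini-Hochberg over 10870 genes, with a threshold of 0.05. The fit was also run on counts simulated from its own means and dispersions, which cannot show whether these describe the libraries well. log2 CPM used a prior count of 2. Alternatives were DESeq2 size factors, DESeq2 1.42.0, limma-voom (limma 3.58.1), length offsets, other filters, log2 TPM with a pseudocount of 1, a replicate block, the 2 groups alone, scaling without the members or ribosomal RNA, and each library left out. Leaving out fed AFC replicate 1 and fed SFC replicate 2 together, the transcript fit and the ratio tests were added after seeing the data. A planned comparison of protein and promoter sequences was not run.

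The members and gene lists were chosen with earlier results of these data known. Named genes were the members, their neighbours, *RpL10Ab*, the first-named genes of each list, list members past the threshold and the 5 most similar patterns. Some other list genes, among them *drpr*, *Aef1* and *Tsf1*, were named outside this rule with their values known. The methods name biological triplicates without saying whether the flies came from separate cultures, so p-values measure only the spread between these libraries, which may be technical.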

Additional observations from a re-analysis of the deposited data

How the results depend on the processing

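Over 189 values of the 9 member comparisons under 21 alternatives, 0 passed an adjusted p of 0.05, and the smallest adjusted p was 0.0917 (DESeq2, *Yp3* in fed SFCs against starved AFCs). The positive LFC of all 3 members in fed SFCs against fed AFCs was kept in every alternative, as was that of *Yp1* and *Yp3* against starved AFCs. The sign in starved AFCs against fed AFCs was not stable. For *Yp1* the LFC of -0.01 became 0.037 with no filter, 0.018 when scaled without the members, 0.14 on log2 TPM, and 0.13 without fed AFC replicate 1 and fed SFC replicate 2, the libraries with the most genes and the most ribosomal RNA. Leaving out 1 library at a time gave -0.19 to 0.26 for *Yp1*, -0.075 to 0.58 for *Yp2* and -0.50 to 0.25 for *Yp3* in this comparison. For *Yp2* in fed SFCs against starved AFCs it gave -0.00057 to 0.72. In fed SFCs against fed AFCs it gave 0.28 to 0.90 for *Yp1*, 0.19 to 0.89 for *Yp2* and 0.47 to 1.16 for *Yp3*, lowest in each case without fed SFC replicate 3. The LFC of *Yp3*-RA in starved AFCs against fed AFCs, 0.16, ran from -0.25 to 0.67, at -0.05 without starved AFC replicate 1 and -0.25 without replicate 2. The ratio of *Yp3* to *Yp1* in fed SFCs was 0.885 from counts per kilobase, against 0.992 from TPM, which use effective lengths.

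Replicate numbers are shared between groups, but same-numbered libraries did not deviate together, with correlations of -0.12, 0.12 and -0.28 in fed SFCs against fed AFCs and -0.21, -0.53 and 0.39 in starved AFCs against fed AFCs, so the numbers were not taken to pair them. With the replicate block the LFC of *Yp1* in starved AFCs against fed AFCs was 0.016, no member was called, and 186 genes in place of 325 were called in fed SFCs against fed AFCs. DESeq2 called 1064, 98 and 892 genes in place of 325, 24 and 241 in fed SFCs against fed AFCs, starved AFCs against fed AFCs, and fed SFCs against starved AFCs, and a fit of 2 groups alone called 15 in the second. Leaving out 1 library gave 85 to 487, 8 to 23 and 111 to 383 genes, so the background percentages depend on single libraries. They were lowest without fed AFC replicate 3, starved AFC replicate 3 and starved AFC replicate 1, in that order of comparisons. The members had 97863 to 986982 reads a library, so the spread between the 3 libraries of a group, and not depth, limited these comparisons.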
